A study of Mus musculus with 12 samples.

Results

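The late step of polyamine depletion was measured as the difference between NIH3T3 cells kept in DFMO for 96 h and cells kept in it for 48 h. Its members are the 2 arrays labelled DFMO-treated at 96 h and the 2 arrays labelled DFMO-treated at 48 h, which make 4 of the 12 arrays of the series. The 96 h and 48 h groups share everything the labels state except time: NIH3T3 mouse fibroblasts, an established cell line, grown in serum, with DFMO at 1 mM added a day after seeding, and cells in G1 collected by sorting. The other arrays are 2 at 12 h, 3 at 24 h and 3 of untreated cells at 0 h. The labels call the arrays of a group biological replicates. No untreated cells from 96 h or 48 h were analysed here, so hours in the drug and hours in culture cannot be told apart.

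DFMO (difluoromethylornithine) inactivates ornithine decarboxylase, so putrescine and the spermidine and spermine made from it run low. Polyamines bind nucleic acids, and spermidine is also the donor of hypusine, a modified residue that the translation factor eIF5A needs, so cells short of them slow their translation and their division. In dividing fibroblasts, E2F factors switch on the genes of DNA synthesis late in G1, the genes of mitosis follow later in the cycle, and pocket proteins repress both sets when cells stop dividing. The transcription factor ATF4 answers amino acid shortage and other stress, and p53 answers DNA damage and other stress with inhibitors of the cell cycle and repair genes.

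Each array gave log2 values for 35399 transcript clusters, and 19938 genes with a single symbol were tested with limma. Replicate arrays correlated with r of 0.9964 at 96 h and 0.9967 at 48 h across genes, while a 96 h array and a 48 h array correlated with r of 0.9827 to 0.9858. The number of arrays limits the precision. Among 16 fibroblast markers the median level was 9.16 log2 units at 96 h and 8.95 at 48 h, and collagen I, vimentin and Sparc were high at both times. Dcn and Lum, which mature fibroblasts make, sat near the bottom of the scale at 48 h, and Lum did so at 96 h too (3.78 and 3.81 at 96 h, against 3.74 and 3.69 at 48 h). Of the fibroblast markers, Dcn was called higher and Thy1 lower (-2.09 ± 0.12 log2 units, adjusted p 9.67e-06). The 19 leukocyte markers had a median of 3.71 at 96 h and 3.64 at 48 h, the 18 epithelial and endothelial markers 3.54 at 96 h and 3.48 at 48 h, and the 20 adipocyte and muscle markers 3.60 at 96 h and 3.58 at 48 h. The defining leukocyte gene Ptprc lay at 3.36 and 3.35 at 96 h, against 3.23 and 3.34 at 48 h. Some members lay well above these medians. Krt14 measured 7.32 and 6.70 at 96 h, against 8.11 and 7.97 at 48 h. Lpl measured 7.14 and 7.47 at 96 h, against 7.82 and 7.67 at 48 h. Lyz2 measured 6.01 and 6.49 at 96 h, against 4.90 and 4.94 at 48 h. In those lists the calls were Lyz2, Cdh1, Tek and Des higher and Krt14 lower, and each of these 5 calls was lost when at least 1 of the 4 arrays was left out. Their part in the results was not tested.

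Between 48 h and 96 h in DFMO most transcripts of the cell division programme fell and others rose. The rises included 14 of 33 p53 targets, 4 of 13 histone genes and 12 of 49 lysosomal and autophagy genes. At an adjusted p under 0.05, 868 genes were higher at 96 h (4.35% of those tested) and 855 were lower (4.29%). The 2 directions held like numbers of genes and unlike sizes. Of the called genes, 116 were at least 2-fold higher and 314 at least 2-fold lower, and at 4-fold the counts were 9 higher and 88 lower. The median size was 0.61 log2 units among the rises and -0.80 among the falls, against a median of 0.03 over all genes tested. In all 1723 called genes the 96 h arrays and the 48 h arrays did not overlap. The calls were made on these same arrays, so this separation goes with the calls and gives no further support. With 2 arrays in each group the count depends on each of them. It was 1007 when 96 h replicate 1 was left out, 993 when 96 h replicate 2 was, 748 for 48 h replicate 1 and 1060 for 48 h replicate 2.

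The step before it, 48 h against 24 h, is given beside the late step. It uses the same 48 h arrays with the opposite sign and lasts 24 h, not 48 h. There 105 genes were higher at 48 h (0.527% of those tested) and 228 lower (1.14%), with a median over all genes of -0.005. These 333 calls came down to 92 or 67 when 48 h replicate 1 or 2 was left out, to 214 without 24 h replicate 3, and to 61 in a fit of the 5 compared arrays alone. The test of the difference compares whole steps and not rates per hour, so a gene that falls steadily also has a more negative late step. In this test, 21 genes had a more positive late step (0.105%) and 72 a more negative one (0.361%). That count of 93 was 16 without 48 h replicate 1 and 45 without 48 h replicate 2, and 28 in a fit of the compared arrays alone.

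The largest falls were in genes of DNA replication and of mitosis. Pclaf, a partner of the sliding clamp PCNA at replication forks, measured 4.06 and 4.13 log2 units at 96 h, against 9.17 and 8.60 at 48 h. It was 27.7-fold lower (-4.79 ± 0.19, SE, limma adjusted p 1.26e-06). Its mean was 9.87 in untreated cells and 10.06 at 24 h, and it had fallen by 1.18 between 24 h and 48 h. Uhrf1, which brings the maintenance DNA methyltransferase to newly copied DNA, measured 4.86 and 4.44 at 96 h, against 9.16 and 9.01 at 48 h. It was 21.6-fold lower (-4.43 ± 0.14, adjusted p 3.42e-07). Mcm6, a subunit of the replicative helicase, measured 5.85 and 5.76 at 96 h, against 10.00 and 9.80 at 48 h. It had the smallest adjusted p of all genes (-4.10 ± 0.09, adjusted p 2.85e-08). For each of these genes the 96 h arrays lay over 3 log2 units below the 48 h arrays.

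The next genes in order of size were Mcm5 (-3.75), another helicase subunit, Pbk (-3.59), a mitotic kinase, and Ccna2 (-3.58), the cyclin of S phase and mitotic entry. They were followed by the spindle checkpoint kinase Bub1 (-3.41), the microtubule destabiliser Stmn1 (-3.31), the cytokinesis kinesin Kif20a (-3.11), and the kinetochore proteins Kntc1 (-3.10), Nuf2 (-3.07) and Cenpa (-3.06). Ccna2 measured 4.63 and 4.77 at 96 h, against 8.45 and 8.10 at 48 h, and Stmn1 measured 5.90 and 5.66 at 96 h, against 9.26 and 8.93 at 48 h. All 12 calls held with each of the 4 arrays left out in turn. Several of these genes ended close to the level of the leukocyte markers, and 203 of the 855 genes called lower (23.7%) had a 96 h mean under 5 log2 units. Background remains in such values, so their folds are understated. In a bulk sample, fewer cells that express a gene and less RNA per cell cannot be told apart.

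**Figure D1:**
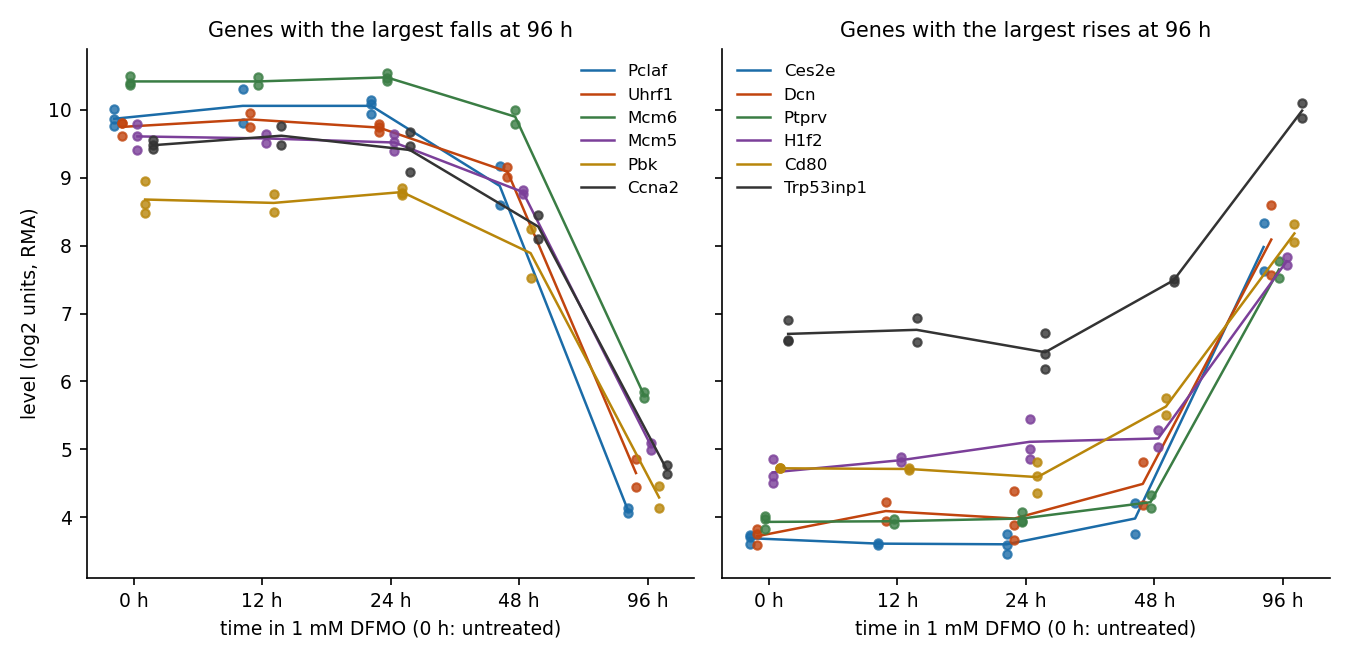
Levels (y axis, log2 units) of the 6 genes with the largest falls (left) and the 6 with the largest rises (right) at 96 h against 48 h, by time in DFMO (x axis, evenly spaced). Each point is 1 array and lines join group means. In both panels values up to 24 h are nearly level and most change lies between 48 h and 96 h, the longest interval. There Mcm6 moved by -4.10 and Ces2e by 4.0.

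Genes of DNA replication fell almost as a whole. Of 56 list members, all measured, 49 were lower at 96 h and 0 higher, with a median change of -1.48. The median level of the list was 8.19 in untreated cells, 8.29 at 12 h, 8.16 at 24 h, 7.61 at 48 h, then 5.81 at 96 h. At 48 h against 24 h, 23 members were lower and the median was -0.62, and in 12 members the late step was the more negative by the test of the difference. The falls covered successive stages of replication. The origin licensing factor Cdc6 measured 3.26 and 3.57 at 96 h, against 6.30 and 5.94 at 48 h (-2.71 ± 0.16, adjusted p 8.83e-06). The helicase subunits Mcm2 (-2.07), Mcm3 (-2.38), Mcm4 (-2.33) and Mcm7 (-2.25) fell alike. Cdc45 (-2.14) and Gins1 (-2.22), which join the helicase when origins fire, fell too.

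At the fork, the polymerase subunit Pole measured 4.54 and 4.61 at 96 h, against 7.25 and 7.03 at 48 h (-2.57 ± 0.12, adjusted p 2.04e-06). Pcna itself measured 8.44 and 8.33 at 96 h, against 10.59 and 10.27 at 48 h (-2.04 ± 0.11, adjusted p 5.06e-06), so it kept a level well above the floor. The ligase Lig1 (-2.89) and the chromatin assembly subunits Chaf1b (-3.01) and Chaf1a (-1.87) fell. All 4 genes of the polymerase primase, which starts new strands, fell: Prim1 (-2.18), Prim2 (-1.47), Pola1 (-1.38) and Pola2 (-1.14). The 7 members that were not called were Cdt1, Pold3, Rpa3 and the origin recognition genes Orc2, Orc3, Orc4 and Orc5, with changes between -0.97 for Rpa3 and 0.28 for Orc4. The origin recognition genes Orc1 and Orc6 were called, at -1.43 and -0.58, the call on Orc6 being lost without 96 h replicate 1 or 48 h replicate 1. With 1 array left out the number called lower ranged from 39 to 46, and 39 calls held in all 4 cases.

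Genes of mitosis and the G2/M transition showed the highest share of calls of any list. Of 92 measured members, 84 were lower and 0 higher, with a median change of -1.73. Their median level was 7.58 in untreated cells, 7.62 at 12 h, 7.54 at 24 h, 6.64 at 48 h, then 4.75 at 96 h. At 48 h against 24 h, 39 were lower with a median of -0.69, and 22 had a more negative late step by the test of the difference. The kinesin Kif15 measured 4.50 and 4.57 at 96 h, against 6.28 and 6.29 at 48 h (-1.75 ± 0.06, adjusted p 5.75e-07). Its late step was close to its onset step of -1.32, while Nuf2, with 4.50 and 4.64 at 96 h against 7.71 and 7.57 at 48 h, fell by 3.07 in the late step after an onset step of -0.96.

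The spindle assembly factor Tpx2 measured 6.22 and 6.13 at 96 h, against 8.42 and 8.43 at 48 h (-2.25 ± 0.08, adjusted p 5.75e-07). Aspm, which acts at spindle poles, measured 4.25 and 4.21 at 96 h, against 6.35 and 6.43 at 48 h (-2.16 ± 0.08). The master mitotic kinase Cdk1 (-2.06) fell together with its cyclin Ccnb2 (-2.38) and the activating phosphatase Cdc25c (-2.12). The kinases Plk1 (-2.30), Aurka (-1.61) and Aurkb (-1.82) fell, as did Foxm1 (-2.30) and Mybl2 (-2.04), transcription factors that drive mitotic genes. Top2a (-2.55), which untangles chromosomes, and the nuclear lamina gene Lmnb1 (-2.75) fell. The 8 members not called included the checkpoint gene Bub3 (0.08), the securin Pttg1 (-0.59, adjusted p 0.164) and Gtse1 (0.21). Of the 84 calls 71 held with any 1 of the 4 arrays left out, and the count was between 72 and 78.

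The sequences just upstream of 2 replication genes, 1 mitosis gene and 1 lysosome gene, each among the genes with the smallest p in its list, are shown because falling cell cycle genes are known as targets of E2F and of repressor complexes that bind the CHR element. They come from RefSeq on build GRCm38.p6, run from 250 bases before to 50 after the gene's start, and read 5′ to 3′ on the gene's strand. Capitals mark matches on either strand to E2F letters (TTTGGCGC, TTTGCCGC, TTTCGCGC or TTTCCCGC), the CHR (TTTGAA), the CCAAT box (CCAAT) and the CLEAR element of lysosomal genes (GTCACGTG). Mcm6 lies at chr1:128359656-128359955 on the minus strand, Mcm5 at chr8:75109259-75109558 on the plus strand, Kif15 at chr9:122950831-122951130 on the plus strand and Ctsd at chr7:142387778-142388077 on the minus strand.
Mcm6: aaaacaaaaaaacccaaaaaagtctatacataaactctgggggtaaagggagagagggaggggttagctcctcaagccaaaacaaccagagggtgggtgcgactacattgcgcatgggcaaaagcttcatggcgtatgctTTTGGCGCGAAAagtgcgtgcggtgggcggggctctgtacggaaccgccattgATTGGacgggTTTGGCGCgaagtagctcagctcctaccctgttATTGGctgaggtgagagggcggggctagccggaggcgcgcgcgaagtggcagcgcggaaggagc
Mcm5: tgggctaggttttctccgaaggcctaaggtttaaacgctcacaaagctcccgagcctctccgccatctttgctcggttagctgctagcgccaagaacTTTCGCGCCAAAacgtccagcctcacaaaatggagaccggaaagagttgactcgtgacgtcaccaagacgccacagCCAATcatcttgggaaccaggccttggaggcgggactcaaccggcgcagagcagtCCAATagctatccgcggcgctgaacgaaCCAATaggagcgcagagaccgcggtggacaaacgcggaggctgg
Kif15: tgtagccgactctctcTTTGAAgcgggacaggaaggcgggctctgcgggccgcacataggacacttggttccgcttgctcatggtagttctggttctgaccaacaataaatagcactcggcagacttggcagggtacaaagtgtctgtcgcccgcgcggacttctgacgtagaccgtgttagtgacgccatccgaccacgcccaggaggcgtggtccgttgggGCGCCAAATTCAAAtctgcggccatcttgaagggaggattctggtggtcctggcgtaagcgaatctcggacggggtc
Ctsd: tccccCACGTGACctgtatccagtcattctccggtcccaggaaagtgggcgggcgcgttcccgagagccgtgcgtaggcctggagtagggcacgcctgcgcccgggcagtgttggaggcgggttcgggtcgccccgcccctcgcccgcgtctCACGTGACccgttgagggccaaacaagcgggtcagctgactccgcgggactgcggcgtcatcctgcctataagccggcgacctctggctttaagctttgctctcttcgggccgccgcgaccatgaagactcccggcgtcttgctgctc
In Mcm6 and Mcm5 the first block of capitals holds E2F letters on both strands that overlap. In Mcm6 the next E2F block, at position -47 from the start site, lies between 2 inverted CCAAT boxes, and Mcm5 has 3 CCAAT boxes. In Kif15 an E2F match at position -27 is followed directly by a CHR, both on the strand opposite to the gene, and another CHR lies at -234. Ctsd, a gene that rose, has 2 CLEAR matches and none of the other letters. The windows of Nuf2 and of Sqstm1, the lysosome list gene with the smallest p, hold none of these letters, and Ctsd comes next after Sqstm1. Windows of the sterol list genes Mylip and Ggps1 were searched too and hold CCAAT boxes only. Each window shown holds matches, so they do not stand for their lists.

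A promoter window was in the table for 45 of 56 replication genes, 76 of 92 mitosis genes and 42 of 49 lysosome genes. E2F letters occurred in 37.8% of the replication windows, against 2.60% of the windows of all 27025 genes in the table and 3.48% of those of the 15614 genes tested. CHR letters occurred in 64.5% of the mitosis windows, against 20.2% of all and 17.3% of those tested. CLEAR letters occurred in 21.4% of the lysosome windows, against 2.55% of all and 3.46% of those tested, and they were also in 13.0% of the sterol windows and 8.89% of the replication windows. Among all genes called lower at 96 h with a window (708), 11% held E2F letters and 21.3% CHR letters. Among those called higher (709), the shares were 3.67% and 14.7%, and CLEAR letters were in 6.63%, against 3.39% of those called lower. CCAAT letters were in 49.5% of those called higher and 49.2% of those called lower, against 41.7% of those tested and 41.1% of all. They were in 91.3% of the sterol windows, 69.7% of the mitosis windows, 57.8% of the replication windows and 40.5% of the lysosome windows. A match is a run of letters and was not tested for binding.

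Deoxynucleotide synthesis followed replication. Of 13 measured genes 8 were lower and 0 higher, with a median of -0.81 against -0.46 in the step before. The thymidine kinase Tk1 measured 4.07 and 4.39 at 96 h, against 7.39 and 6.90 at 48 h (-2.91 ± 0.20, adjusted p 2.46e-05). Both subunits of S phase ribonucleotide reductase fell, Rrm1 (-1.73) and Rrm2 (-2.06). Rrm2b, the subunit used outside S phase, measured 5.77 and 5.74 at 96 h, against 5.61 and 5.45 at 48 h, which was not called (adjusted p 0.269). The thymidylate synthase Tyms fell by 1.22. Of these 8 calls 6 held with any 1 of the 4 arrays left out.

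Genes of homologous recombination and of the Fanconi pathway, which mend broken and cross-linked DNA, were lower for 22 of 31 measured members and higher for 0, with a median of -1.05. Hells, a chromatin remodeller, measured 7.46 and 7.61 at 96 h, against 9.92 and 9.75 at 48 h (-2.30 ± 0.12, adjusted p 5.48e-06). The helicase Brip1 (-2.44), its partner Brca1 (-2.19), the Fanconi core gene Fanca (-2.01) and the checkpoint gene Trip13 (-2.38) fell. In the step before, 10 members were lower. The count was 15 without 48 h replicate 1 and between 16 and 22 without another array.

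The regulators of G1 moved in both directions. Among 17 E2F factors, pocket proteins and partners, 7 were lower and 2 higher, with a median of -0.27. The pocket protein Rbl1 (p107) measured 6.51 and 6.81 at 96 h, against 8.44 and 8.20 at 48 h (-1.66 ± 0.12, adjusted p 4.57e-05). Rbl2 (p130), the pocket protein that prevails in resting cells, measured 6.83 and 7.25 at 96 h, against 6.14 and 6.16 at 48 h (0.89 ± 0.17, adjusted p 0.0118). Rb1 measured 7.91 and 7.99 at 96 h, against 7.25 and 6.92 at 48 h (0.87 ± 0.19, adjusted p 0.0192). So the 3 pocket proteins split, with Rbl1 lower and Rbl2 and Rb1 higher. The activator E2f1 (-1.40) fell, and so did the repressors E2f7 (-1.36), E2f8 (-1.46) and E2f4 (-0.80). The calls on Rbl2 and Rb1 were each lost with some arrays left out, Rbl2 without 96 h replicate 2 or either 48 h array and Rb1 without 48 h replicate 2 or either 96 h array. The count of lower members was 4 without 48 h replicate 1.

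Among 18 measured G1 cyclins and inhibitors of cyclin-dependent kinases, 5 were lower and 1 higher. Cyclin E1 (Ccne1), which drives entry into S phase, measured 5.03 and 4.85 at 96 h, against 7.13 and 6.92 at 48 h (-2.08 ± 0.16, adjusted p 4.57e-05). Ccne2 (-1.94), the phosphatase Cdc25a (-1.5), Skp2 (-1.54), which marks CDK inhibitors for destruction, and Cdk2 (-0.87) fell. Ccnd2, a D-type cyclin, measured 11.44 and 11.31 at 96 h, against 10.63 and 10.72 at 48 h (0.71 ± 0.11, adjusted p 0.00435). Ccnd1 (-0.45, adjusted p 0.199) and Cdk4 (-0.22, adjusted p 0.0839) were not called. The call on Cdk2 was lost without 96 h replicate 1 or either 48 h array.

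Genes that keep DNA methylation and repressive chromatin through replication were lower for 15 of 22 measured members and higher for 1, with a median of -0.90. The maintenance methyltransferase Dnmt1 measured 7.18 and 7.20 at 96 h, against 8.94 and 9.00 at 48 h (-1.78 ± 0.06, adjusted p 5.75e-07). The histone chaperones Asf1b (-2.99) and Nasp (-1.64) and the histone variant gene H2ax (-1.13) fell. In the Polycomb complex, which writes a repressive histone mark, Suz12 (-0.69) and Ezh2 (-0.58) fell, while Eed (0.51) was called higher, a call lost with any 1 of the 4 arrays left out. Dnmt1 stayed well above the floor and Uhrf1, its partner, did not. The number called lower was between 12 and 14 with 1 array left out.

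**Figure D2:**
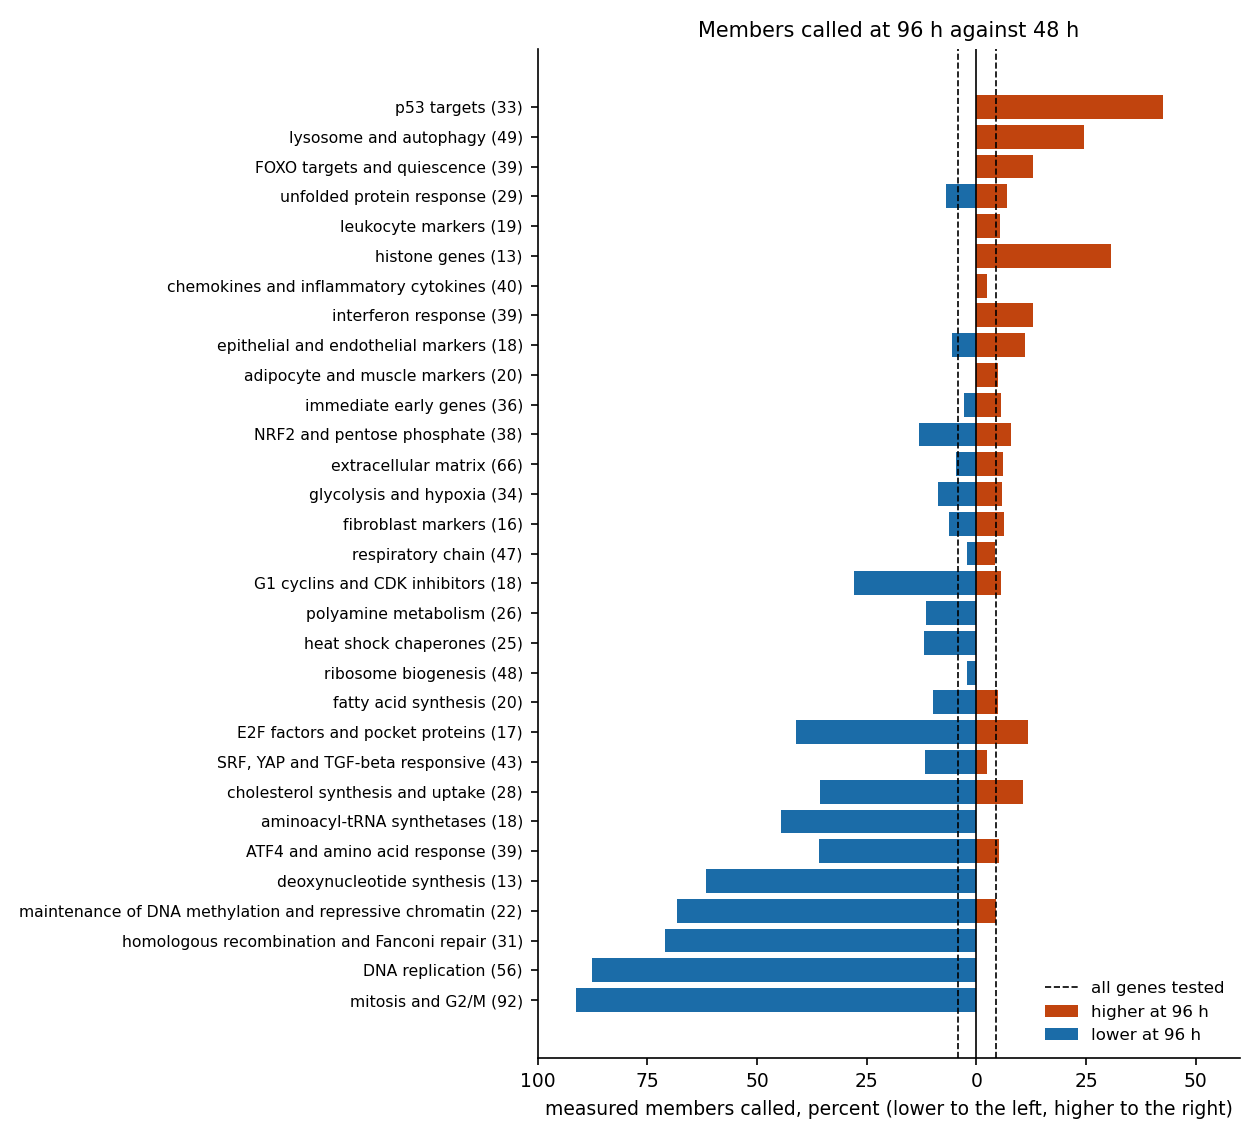
Percent of the measured members of each of the 31 gene lists (number of members in brackets) called higher (to the right) or lower (to the left) at 96 h against 48 h, in order of the median change. Dashed lines mark the 4.35% and 4.29% of all genes tested that were called higher and lower; DNA replication and mitosis stand farthest to the left and p53 targets farthest to the right.

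The 7 lists on the cell cycle hold 249 distinct measured genes, of which 190 were called lower and 4 higher. These 190 make 22.2% of all genes called lower and 76.3% of the lists. Of the 88 genes at least 4-fold lower, 66 (75%) are on these lists, and they make 26.5% of the lists. The lists were chosen with earlier results of these data known, so these shares describe the change and do not test it.

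Some histone transcripts, which are usually made together with new DNA, rose while replication genes fell. Of 13 measured histone genes 4 were higher and 0 lower, with a median of 0.06. The linker histone H1f2 measured 7.83 and 7.71 at 96 h, against 5.04 and 5.29 at 48 h (2.61 ± 0.18, adjusted p 3.03e-05), and had an untreated mean of 4.66. H2bc4 measured 9.54 and 9.64 at 96 h, against 7.89 and 7.71 at 48 h (1.79 ± 0.25, adjusted p 0.00234), and was already called higher in the step before (1.31, adjusted p 0.0244). H2bc8 measured 6.39 and 7.74 at 96 h, against 5.20 and 5.08 at 48 h, and its 96 h arrays lay far apart (1.93 ± 0.32, adjusted p 0.00568). H4c9, which is on no list, measured 7.30 and 7.71 at 96 h, against 5.98 and 6.02 at 48 h (1.5 ± 0.13, adjusted p 1.5e-04).

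Other histone genes did not share this. H1f5, another linker histone, measured 7.01 and 6.95 at 96 h, against 8.24 and 8.15 at 48 h, which did not pass the test (-1.21 ± 0.36, adjusted p 0.071). H4c4 measured 6.34 and 5.63 at 96 h, against 7.05 and 6.58 at 48 h (adjusted p 0.142). Most histone mRNAs lack a poly(A) tail and histone genes are near-identical copies, so probes can share signal between members, and 10 of the 23 histone genes listed were not measured on a cluster of their own. Of the 4 calls, that on H2bc21 (0.51, adjusted p 0.0349) was lost in 7 settings, among them without 96 h replicate 2 or either 48 h array. Both it and the call on H2bc8 were lost in a fit of the 4 compared arrays alone.

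The largest rises were in genes with varied roles. Ces2e, a carboxylesterase, measured 7.63 and 8.33 at 96 h, against 4.21 and 3.75 at 48 h (4.0 ± 0.21, adjusted p 4.82e-06). Dcn, the matrix proteoglycan decorin, measured 7.57 and 8.60 at 96 h, against 4.81 and 4.18 at 48 h (3.59 ± 0.34, adjusted p 2.01e-04). Ptprv, a receptor-type tyrosine phosphatase, measured 7.52 and 7.77 at 96 h, against 4.32 and 4.13 at 48 h (3.42 ± 0.10, adjusted p 3.42e-07). These 3 genes were the only ones called at least 8-fold higher, and their untreated means lay between 3.69 for Ces2e and 3.93 for Ptprv, near the floor.

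The other large rises outside the histone and p53 lists were Thsd7a (2.45 ± 0.25), a thrombospondin-domain protein, and Hoatz (2.10 ± 0.09), a protein of cilia and flagella. Sulf2, which trims sulfate from heparan sulfate, measured 8.59 and 8.71 at 96 h, against 6.46 and 6.72 at 48 h (2.06 ± 0.15, adjusted p 3.12e-05). It had risen by 1.72 in the step before as well. The circadian repressor Bhlhe41 measured 7.91 and 7.57 at 96 h, against 5.99 and 5.91 at 48 h (1.79 ± 0.19, adjusted p 4.14e-04). Of the 868 genes called higher, 216 (24.9%) had a 48 h mean under 5 log2 units, and 68 (7.8%) are on any of the 31 lists, against 29.6% of the genes called lower.

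Part of the p53 targets rose. Of 33 measured members 14 were higher and 0 lower, with a median of 0.56, and 28 changes were positive. The list's median level was 6.69 in untreated cells, 6.65 at 12 h, 6.72 at 24 h, 7.20 at 48 h, then 8.06 at 96 h. Cd80, a ligand that costimulates T cells and a p53 target in several cell types, measured 8.32 and 8.05 at 96 h, against 5.76 and 5.51 at 48 h (2.55 ± 0.14, adjusted p 5.82e-06). Trp53inp1, a nuclear cofactor of p53, measured 10.10 and 9.88 at 96 h, against 7.51 and 7.47 at 48 h (2.5 ± 0.18, adjusted p 3.87e-05). Mdm2, the ubiquitin ligase that restrains p53, measured 10.85 and 10.58 at 96 h, against 9.29 and 9.52 at 48 h (1.32 ± 0.17, adjusted p 0.0014). In each of these genes both 96 h arrays stood at least 1 log2 unit above both 48 h arrays.

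Of the repair genes of the list, the nuclease Ercc5 rose by 1.2 ± 0.09 (adjusted p 3.66e-05) and the translesion polymerase Polk by 1.31 ± 0.14. Xpc (0.43, adjusted p 0.0847) and Ddb2 (0.33, adjusted p 0.52), which recognise damaged DNA, did not pass. The death receptors Tnfrsf10b and Fas rose by 1.03 and 1.07, the call on Fas being lost without 96 h replicate 1 or 48 h replicate 2. Ccng1 (0.34, adjusted p 0.0608), Sesn2 (0.67, adjusted p 0.0716) and Bbc3, which triggers apoptosis (0.39, adjusted p 0.155), did not pass. The p53 gene and Cdkn1a, the p21 inhibitor, were not measured on a cluster of their own. The onset step had 5 members higher and a median of 0.41. The count was 9 when 96 h replicate 1 was left out, 16 when 96 h replicate 2 was, 12 for 48 h replicate 1 and 9 for 48 h replicate 2, and 8 of the 14 calls held in all 4 cases.

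A minority of the lysosomal and autophagy genes rose, by small amounts. Of 49 measured members 12 were higher and 0 lower, with a median of 0.30, and 43 changes were positive. The autophagy receptor Sqstm1 measured 12.04 and 12.09 at 96 h, against 11.02 and 11.37 at 48 h (0.88 ± 0.13, adjusted p 0.00324). The protease cathepsin D (Ctsd), whose promoter is shown above, measured 12.14 and 12.10 at 96 h, against 11.21 and 11.19 at 48 h (0.92 ± 0.14, adjusted p 0.00342). The protease Ctsb rose by 0.80 and the acid glucosidase Gaa by 0.86, both without a call when 48 h replicate 1 was left out. The count depends on single arrays. It was 4 when 96 h replicate 1 was left out, 5 when 96 h replicate 2 was, 3 for 48 h replicate 1 and 9 for 48 h replicate 2, and only Sqstm1 and Ctsd kept their call in all 4 cases.

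Genes of quiescence and FOXO targets were higher for 5 of 39 members, against 4.35% of all genes tested, and lower for 0, with a median of 0.19. The 5 were Dcn, Rbl2, Pik3ip1, Foxo3 and Tob1. Pik3ip1, an inhibitor of PI3 kinase, measured 7.52 and 7.5 at 96 h, against 6.07 and 5.79 at 48 h (1.57 ± 0.26, adjusted p 0.00493). The transcription factor Foxo3 measured 7.95 and 7.62 at 96 h, against 6.95 and 6.90 at 48 h (0.86 ± 0.11, adjusted p 0.00117). The antiproliferative gene Tob1 measured 8.56 and 8.54 at 96 h, against 8.04 and 7.88 at 48 h (0.59 ± 0.07, adjusted p 6.55e-04). Apart from Rbl2 these calls held with any 1 of the 4 arrays left out.

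Interferon response genes were higher for 5 of 39 measured members, against 4.35% of all genes tested, and lower for 0, with a median of 0.03. Tap1, a peptide transporter of antigen presentation, measured 7.67 and 7.18 at 96 h, against 6.34 and 6.20 at 48 h (1.15 ± 0.22, adjusted p 0.0108). B2m, the light chain of class I molecules, measured 12.11 and 12.25 at 96 h, against 11.49 and 11.67 at 48 h (0.60 ± 0.15, adjusted p 0.0391). Ifit3 stayed low, at 4.30 and 4.19 at 96 h, against 3.59 and 3.60 at 48 h (0.65 ± 0.08, adjusted p 8.36e-04), and was the only one of the 5 whose call held with any 1 of the 4 arrays left out. The count was 2 without 96 h replicate 1 and 1 without either 48 h array. In the list of 40 chemokines and cytokines only Cxcl12 was called (1.12 ± 0.16, adjusted p 0.00274). With 4.35% of all genes called higher, this 1 call is no result about the list.

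In the list of the ATF4 and amino acid response, the genes called in the step before were all higher, and most of those called at 96 h were lower. The list's median level was 7.58 in untreated cells, 7.36 at 12 h, 7.38 at 24 h, 8.21 at 48 h, then 7.87 at 96 h. By array the median was 8.60 and 7.82 at 48 h, against 7.94 and 7.76 at 96 h, so the medians of the arrays overlapped. The mean over the list did not overlap, with 8.36 and 8.01 at 48 h, against 7.58 and 7.51 at 96 h. In the step before, 5 of 39 measured members were higher, 0 lower, and the median change was 0.56. In the late step 2 were higher and 14 lower, with a median of -0.63, and the median of the difference between the steps was -0.93, with 2 members called, Chac1 and Shmt2. Both steps use the 48 h arrays, with opposite signs.

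Most of the members called lower at 96 h make or take up amino acids or one-carbon units, and Pck2 and Chac1 have other roles. Psat1, of serine synthesis, measured 9.28 and 9.51 at 96 h, against 10.98 and 10.75 at 48 h (-1.47 ± 0.16, adjusted p 5.22e-04). Shmt2, of mitochondrial one-carbon metabolism, measured 8.21 on both arrays at 96 h, against 9.61 and 9.66 at 48 h (-1.42 ± 0.15, adjusted p 4.59e-04). The asparagine synthetase Asns measured 10.81 and 10.88 at 96 h, against 12.05 and 11.74 at 48 h (-1.05 ± 0.16, adjusted p 0.00329). All 3 ended below their untreated means of 10.86, 9.64 and 11.57. Pck2, the mitochondrial phosphoenolpyruvate carboxykinase, measured 5.67 and 5.82 at 96 h, against 8.21 and 7.63 at 48 h (-2.18 ± 0.33, adjusted p 0.0034).

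Cth, which makes cysteine, had the largest fall of the list and a wide spread, with 4.75 and 5.69 at 96 h, against 8.72 and 7.42 at 48 h (-2.85 ± 0.51, adjusted p 0.0079). Falls were called in the enzymes Mthfd2 (-2.20), Gpt2 (-2.05), Psph (-2.01), Aldh1l2 (-1.25), Bcat1 (-0.90) and Phgdh (-0.87) and the amino acid transporters Slc7a5 (-1.25) and Slc1a5 (-1.09). The cystine transporter Slc7a11 measured 5.34 and 4.87 at 96 h, against 8.21 and 6.79 at 48 h, and did not pass (adjusted p 0.0636). Chac1, which degrades glutathione, measured 5.77 and 5.59 at 96 h, against 7.5 and 7.03 at 48 h (-1.59 ± 0.28, adjusted p 0.00703). Its onset step had been a rise of 1.34 (adjusted p 0.0334), and the steps differed by -2.92 (adjusted p 0.0314).

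Some transcription factors and stress genes of the same list were called higher and others were not called, while Chac1, described above, was lower. Ddit3 (CHOP), which ATF4 induces under lasting stress, measured 8.55 and 8.20 at 96 h, against 7.21 and 6.83 at 48 h (1.35 ± 0.22, adjusted p 0.00552). Atf5, a further factor made under translational stress, measured 9.72 and 9.22 at 96 h, against 8.16 and 7.77 at 48 h (1.5 ± 0.38, adjusted p 0.0381). Atf4 itself measured 10.33 and 10.25 at 96 h, against 9.94 and 9.98 at 48 h, which did not pass (0.33 ± 0.09, adjusted p 0.0576), after a rise of 0.73 in the step before (adjusted p 0.00412). Trib3 (-0.63, adjusted p 0.444) and Atf3 (-0.02, adjusted p 0.96) were not called. So within 1 list the factors Ddit3 and Atf5 stood higher at 96 h while Asns, Psat1 and 12 other members stood lower.

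The number lower was 10 when 96 h replicate 1 was left out, 8 when 96 h replicate 2 was, 6 for 48 h replicate 1 and 13 for 48 h replicate 2. The calls on Psat1, Shmt2, Asns, Phgdh, Pck2, Slc7a5 and Ddit3 held in all 4 cases, and that on Atf5 was lost in each. The 48 h arrays differed from each other in this list. Replicate 1 was above replicate 2 in each of the 14 members that fell except Shmt2. Both 48 h arrays were above both 96 h arrays in all 14, as in every gene called lower.

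**Figure D3:**
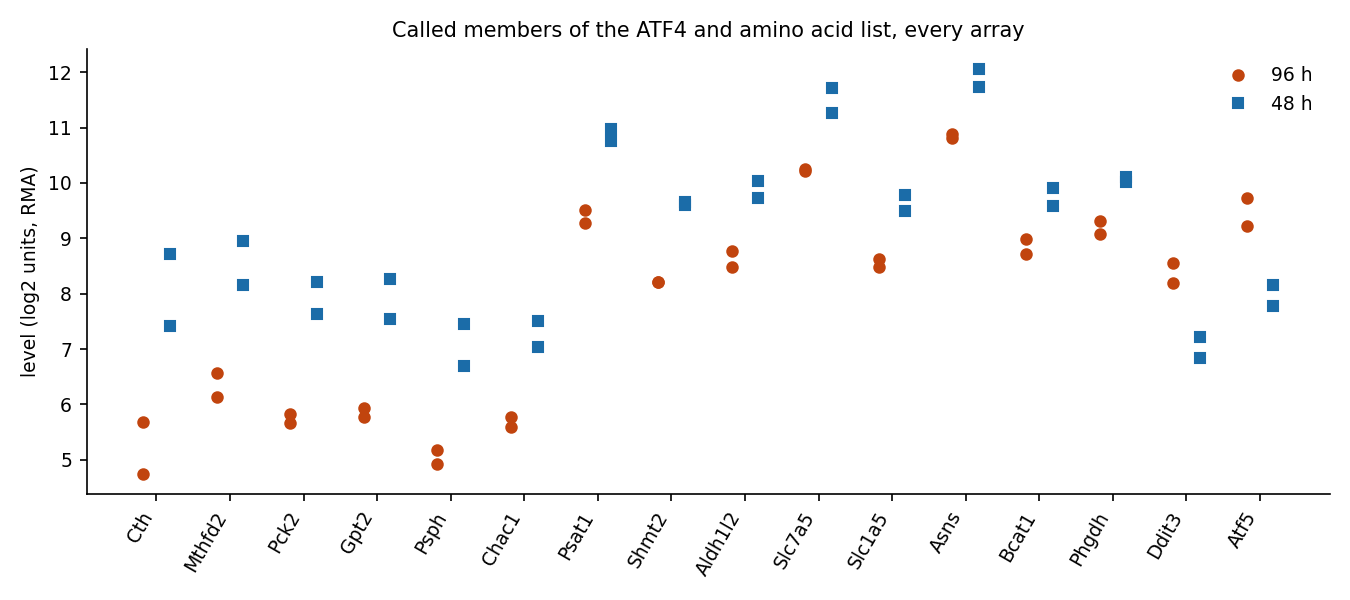
Levels (y axis, log2 units) of the 16 called members of the ATF4 and amino acid list on each array, 96 h as circles on the left and 48 h as squares on the right of each gene. The 14 members from Cth to Phgdh lie lower at 96 h and Ddit3 and Atf5 higher, and the 48 h pair of Cth is spread from 8.72 to 7.42.

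Cytosolic aminoacyl-tRNA synthetases, which charge tRNAs and of which many are ATF4 targets, were lower for 8 of 18 measured genes and higher for 0, with a median of -0.48 after 0.16 in the step before, where 0 were called. Wars measured 9.08 on both arrays at 96 h, against 9.66 and 9.57 at 48 h (-0.54 ± 0.07, adjusted p 0.00201), and was the member whose steps differed by test (-0.85, adjusted p 0.0208). Vars measured 8.26 and 8.06 at 96 h, against 8.91 and 8.87 at 48 h (-0.73 ± 0.10, adjusted p 0.00157). Iars (-0.68), Tars (-0.55) and Mars1 (-0.91) were also lower. The count was 3 when 96 h replicate 1 was left out, 4 when 96 h replicate 2 was, 3 for 48 h replicate 1 and 5 for 48 h replicate 2, and the calls on Wars, Vars and Iars held in all 4 cases.

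Sterol genes had fallen mostly before the late step. The list's median level was 8.46 in untreated cells, 8.60 at 12 h, 8.48 at 24 h, 7.34 at 48 h, then 7.24 at 96 h. In the step before, 16 of 28 measured members were lower and the median was -0.89. In the late step 10 were lower and 3 higher with a median of -0.32, and 0 members differed between the steps by test (with 0.105% and 0.361% of all genes called in the 2 directions). The isoprenoid enzyme Idi1 measured 7.27 and 7.6 at 96 h, against 8.71 and 8.52 at 48 h (-1.18 ± 0.13, adjusted p 6.55e-04). The lanosterol demethylase Cyp51 measured 7.82 and 8.19 at 96 h, against 9.19 and 9.17 at 48 h (-1.17 ± 0.14, adjusted p 9.45e-04). Hmgcs1, of the first steps of the pathway, had a late step of -0.87 after an onset step of -1.57.

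The 3 genes of the list that rose are not enzymes of sterol synthesis itself. Mylip, a ubiquitin ligase that lowers sterol uptake, measured 6.08 and 6.18 at 96 h, against 4.82 and 4.94 at 48 h (1.25 ± 0.17, adjusted p 0.00169). Abca1, which exports cholesterol, measured 4.96 and 5.42 at 96 h, against 4.31 and 4.26 at 48 h (0.90 ± 0.14, adjusted p 0.00346). Ggps1, of the isoprenoid branch used to lipidate proteins, measured 8.57 and 8.77 at 96 h, against 7.80 and 7.84 at 48 h (0.85 ± 0.13, adjusted p 0.0031). The regulators Srebf2 (-0.45, adjusted p 0.141) and Srebf1 (0.11) were not called. The number lower was 6 without 96 h replicate 2 and 3 without each of the other arrays, while the 3 rises held in all 4 cases. Of 20 fatty acid genes 1 was higher (Lpin1, 0.94) and 2 lower (Elovl6, -1.16, and Fads3, -0.67), and Fasn and Acly were not called. Over all genes tested 4.35% were called higher and 4.29% lower, so these counts are no result about the fatty acid list.

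**Figure D4:**
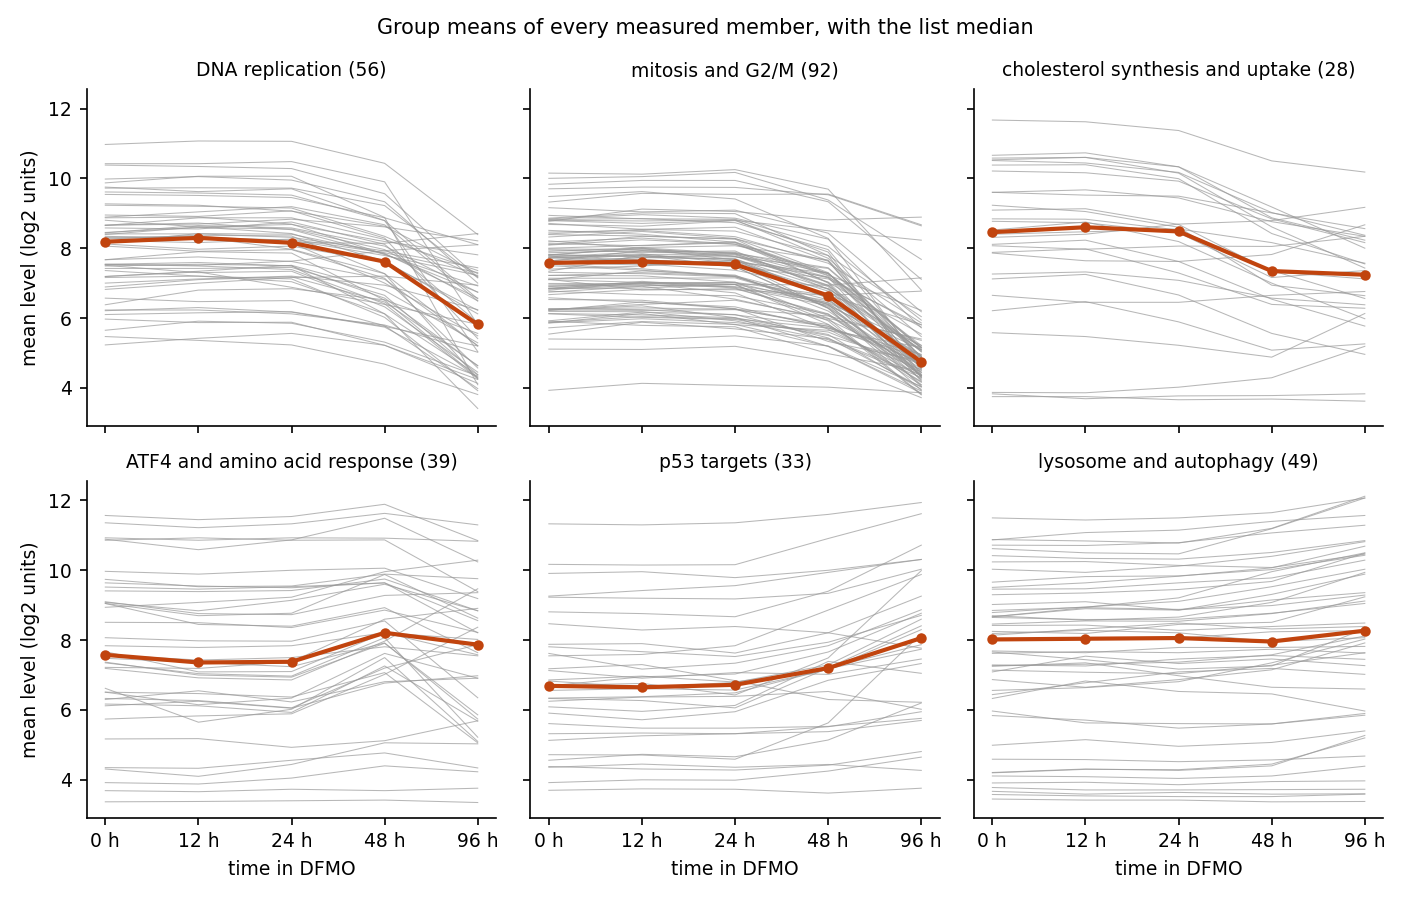
Group mean levels (y axis, log2 units) of each measured member (thin lines) and the list median (thick line) by time in DFMO (x axis, evenly spaced; 0 h is untreated) for 6 lists. Medians of replication and mitosis drop mainly between 48 h and 96 h (to 5.81 and 4.75), the longest interval. That of sterol genes drops mainly between 24 h and 48 h (to 7.34). That of ATF4 genes is highest at 48 h (8.21), where the single arrays had medians of 8.60 and 7.82, against 7.94 and 7.76 at 96 h.

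Of 26 measured genes of polyamine metabolism 3 were lower and 0 higher, with a median of -0.09, and 0 were called in the step before. The shares over all genes tested were 4.29% lower and 4.35% higher. Odc1, which encodes the target of DFMO, measured 9.08 and 8.98 at 96 h, against 9.82 and 9.64 at 48 h (-0.70 ± 0.18, adjusted p 0.0384). Its untreated mean was 9.71. Eif5a, the factor that carries hypusine, measured 11.49 and 11.31 at 96 h, against 11.76 and 11.66 at 48 h (-0.31 ± 0.07, adjusted p 0.0242). Mri1, of methionine salvage, measured 5.35 and 5.21 at 96 h, against 5.88 and 5.86 at 48 h (-0.59 ± 0.16, adjusted p 0.0488). In these 3 genes the arrays of the 2 times did not overlap, as in every called gene, which gives no further support. The calls on Odc1 and Mri1 were lost with any 1 of the 4 arrays left out. That on Eif5a was lost without 96 h replicate 2 or 48 h replicate 1.

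Among the other polyamine genes the catabolic acetyltransferase Sat1 measured 9.12 and 9.31 at 96 h, against 9.31 and 9.54 at 48 h (adjusted p 0.472). The spermidine synthase Srm measured 10.08 and 9.69 at 96 h, against 10.20 and 9.96 at 48 h (adjusted p 0.517). The spermine oxidase Smox measured 4.61 and 4.76 at 96 h, against 4.60 and 5.18 at 48 h (adjusted p 0.778). The antizyme inhibitor Azin1 differed by -0.25 and the hypusination enzymes Dhps and Dohh by -0.11 and -0.07, and none of the 3 was called. The antizyme gene Oaz1 and the decarboxylase genes Amd1 and Amd2 were not measured on a cluster of their own.

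Several other programmes had at most 3 genes called in either direction. Over all genes tested 4.35% were called higher and 4.29% lower, and counts this small are no result about a programme as a whole. Of 48 ribosome biogenesis genes 1 was lower (Mybbp1a, -0.46). Of 29 genes of the unfolded protein response 2 were higher (Eif2ak3, 0.81, the kinase PERK, and Sdf2l1, 0.55) and 2 lower (Sec24d, -0.84, and Pdia6, -0.56). Of 25 heat shock chaperones 3 were lower, among them Fkbp4 at 7.74 and 7.67 at 96 h, against 8.46 and 8.48 at 48 h (-0.77 ± 0.08, adjusted p 2.61e-04). Of 34 glycolysis and hypoxia genes 2 were higher (Eno2 and Pdk2) and 3 lower (Pgk1, Slc16a1 and Pdk1), and of 47 respiratory chain genes 2 were higher and 1 lower. Of 36 immediate early genes Btg1 and Btg2 were higher and Spry1 lower. With 1 array left out some of these calls were lost, and those on Sec24d, Fkbp4, Hspd1, Eno2, Pgk1 and Slc16a1 held in all 4 cases.

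Among 38 genes of the NRF2 response and the pentose phosphate pathway, 5 were lower and 3 higher with a median of 0.00. The shares over all genes tested were 4.29% lower and 4.35% higher. The quinone reductase Nqo1 measured 6.31 and 6.20 at 96 h, against 7.77 and 7.72 at 48 h (-1.49 ± 0.22, adjusted p 0.00305), after a fall of 1.23 in the step before. The transketolase Tkt measured 8.08 and 8.04 at 96 h, against 8.86 and 8.58 at 48 h (-0.67 ± 0.09, adjusted p 0.00232). The haem oxygenase Hmox1 went the other way, with 9.85 and 9.37 at 96 h, against 8.65 and 8.85 at 48 h (0.86 ± 0.19, adjusted p 0.0231), a call lost without 96 h replicate 1 or either 48 h array. The number lower was 2 or 3 with 1 array left out, and Nqo1 and Tkt were called each time.

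Of 66 matrix genes 4 were higher and 3 lower, with a median of -0.01. These counts lie near the shares over all genes tested, 4.35% higher and 4.29% lower, so only single genes are described. Besides Dcn and Sulf2 the rises were Col12a1, a collagen of fibril surfaces, with 7.81 and 7.43 at 96 h against 6.05 and 5.99 at 48 h (1.60 ± 0.26, adjusted p 0.00519), and the membrane protease Mmp14 (1.00 ± 0.27, adjusted p 0.0494). The falls were Col6a3 (-1.09 ± 0.24), the lysyl oxidase Loxl4 (-0.79) and Serpinf1 (-0.49). The calls on the 3 falls and on Mmp14 were lost without at least 1 of the 4 arrays. The next list holds 43 genes that answer SRF, YAP or TGF-beta, which report on the actin skeleton and cell spreading. Of these, 5 were lower and 1 higher (Id2, 0.68) with a median of -0.29. The mean over the list was 8.51 and 7.95 at 96 h, against 8.52 and 8.56 at 48 h. So the 96 h arrays differed, and replicate 1 lay near the 48 h arrays. Cnn2 measured 9.59 and 9.27 at 96 h, against 10.45 and 10.33 at 48 h (-0.96 ± 0.13, adjusted p 0.00233). The number lower in that list was 11 without 96 h replicate 1, 1 without 96 h replicate 2 and 2 without either 48 h array.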

How the data were processed

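Total RNA from sorted G1 cells was hybridised to Affymetrix mouse gene 1.0 ST arrays, per the labels' protocols. The values are log2 expression per transcript cluster as deposited by the authors, and RMA and Partek are named without versions per the submitters' processing notes. Background stays in such values, so folds of weak genes are understated. Of 35399 clusters, 21789 carried 1 symbol, and of several clusters of a gene that with the highest mean was used, which left 19938 genes. They were fitted with limma 3.58.1 (R 4.3.3) with 1 mean for each of the 5 groups over all 12 arrays, and contrasts were tested two-sided with eBayes and Benjamini-Hochberg adjustment over all genes. Genes were called where the adjusted p was under 0.05. Errors are standard errors of the fit.

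The lists and the groups compared were chosen with earlier results of these data known, and support nothing by themselves. The naming rule took the 12 largest rises and falls among called genes whose arrays did not overlap, the 6 largest step differences in each direction, up to 5 members of each list by p, and any polyamine gene. Other list members, and the Lum values, were named after their values were seen. Of 1103 list entries 1032 were measured, and genes whose clusters name several genes were left out. In a simulation, all 12 arrays were drawn as normal noise around each gene's mean over them, with its spread within the 5 groups. In the simulated 96 h arrays 200 of 19938 genes were changed. The fit recovered 63.8% of 1.5-fold, 85.4% of 2-fold, 98.6% of 3-fold and 99.4% of 4-fold changes, with a mean of 9.6 false calls a run. Noise shared by the genes of an array was not simulated. The alternatives changed the arrays fitted, weights, centring, features, filter, variance prior and cluster choice.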

Additional observations from a re-analysis of the deposited data

Results flagged for a closer look

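For 18 named genes the late step, 96 h against 48 h, and the onset step, 48 h against 24 h, differed by limma's two-sided test of the difference, adjusted over all genes. Both steps use the 48 h arrays and they last 48 h and 24 h. The late step was the more positive one for Ces2e by 3.62 log2 units (adjusted p 0.00269), Ptprv by 3.17 (adjusted p 1.08e-04), H1f2 by 2.55 (adjusted p 0.00871), Hoatz by 1.69 (adjusted p 0.00221), Cd80 by 1.51 (adjusted p 0.0283) and H4c9 by 1.48 (adjusted p 0.0268). All 6 were also called higher at 96 h, and both 96 h arrays lay above both 48 h arrays, as in every gene so called.

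Among genes of replication and its chromatin the difference was -3.52 for Mcm6 (adjusted p 1.52e-05), -3.01 for Mcm5 (adjusted p 3.83e-04), -3.61 for Pclaf (adjusted p 0.00221) and -3.78 for Uhrf1 (adjusted p 1.83e-04). Among mitotic genes it was -2.69 for Pbk (adjusted p 0.0208), -2.44 for Ccna2 (adjusted p 0.0108), -2.21 for Bub1 (adjusted p 0.00269) and -2.34 for Kif20a (adjusted p 0.00317). At the kinetochore it was -2.43 for Kntc1 (adjusted p 0.00316), -2.11 for Nuf2 (adjusted p 0.00209) and -2.43 for Cenpa (adjusted p 0.00699). These genes had fallen or were lower in the onset step too, and fell further in the late one. Chac1 was the only one of the 18 with a step of each sign, a rise of 1.34 followed by a fall of 1.59, a difference of -2.92 (adjusted p 0.0314). The other step differences called were not singled out.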

How the results depend on the processing

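Of the genes named by the rule, none that was called changed direction under an alternative. The balance of rises and falls did change. It was 868 higher and 855 lower in the main fit, 814 and 887 with only the compared arrays, and 731 and 974 with the arrays centred. The 1723 genes called at 96 h against 48 h numbered 1663 to 2258 in the fits that kept all compared arrays and 748 to 1060 with 1 of the 4 left out. Of 133 called named genes, 87 kept their call throughout. The count at 48 h against 24 h, whose alternatives were added after seeing the data, was 333 and became 61 with only the compared arrays, 521 with array weights, 217 with all clusters tested together, and 67 to 257 with 1 compared array left out. The 93 genes with different steps became 28 with only the compared arrays, 141 with array weights, and 16 to 93 with 1 left out. The labels give replicate numbers but no shared batch or day, and same-numbered arrays deviated from their group means with r of -0.049 at 96 h and 48 h, 0.350 and 0.419 at 48 h and 24 h, and 0.153, 0.287 and 0.581 at 24 h and 0 h, where untreated replicate 1 correlated better with 24 h replicate 2 (0.235). With the replicate number as a block (replicate block) the counts were 2258, 438 and 131, and the rises at 48 h against 24 h numbered 196, against 105. Centring the arrays moved the share of rises among late calls to 42.87%, against 50.38%. The cause was not tested, other than that leaving out arrays leaves fewer samples. Weak genes are limited by background: 203 genes that fell ended under 5 log2 units.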
